A study of Mus musculus with 8 samples.

Results

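Globin and erythroid genes were read in the striatum of 8 adult male mice by 6 probes, those that the array design names Hba-a1, Hba-a2, Hbb-b1, Hbb-b2, Alas2 and Slc4a1. Each gene had 1 probe with 1 spot, out of 39429 probes for 30175 gene names. In 4 or more samples all 6 probes were clearly brighter than their background, as were 22288 probes in all. The genes were chosen by earlier results of these data, in which their intensities varied between mice and moved together, so their levels and differences are given as a description and no test is drawn from them.

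The study compared 4 wildtype mice with 4 mice labelled heterozygous for a gene trap in Brd2 (Brd2+/-), all adult males bred from heterozygous parents that had been backcrossed repeatedly to C57Bl/6J. Brd2 encodes a bromodomain protein that reads acetylated histones. The striatum was dissected and frozen, and the amplified RNA of each mouse was labelled with Cy3 (replicates 1 and 3 of each genotype) or Cy5 (replicates 2 and 4). Mice of 1 genotype shared each of the 4 arrays, which lay on 1 slide: wildtype replicates 1 and 2, wildtype replicates 3 and 4, heterozygous replicates 1 and 2, and heterozygous replicates 3 and 4. A difference between genotypes is therefore also a difference between arrays. Ages in weeks, perfusion and litters are not stated.

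Adult hemoglobin is built from alpha chains (Hba-a1 and Hba-a2) and beta chains, each holding a heme group. Mature mammalian red cells have no nucleus, and the young red cells called reticulocytes still carry large amounts of globin mRNA, together with that of Alas2, the first enzyme of heme synthesis in erythroid cells, and of Slc4a1, the band 3 anion exchanger of the red cell membrane. In brain tissue these transcripts come largely from blood inside the vessels, and globin mRNA has also been described in some neurons and glia. Globin genes are activated through promoter and enhancer elements bound by GATA1, which recognises GATA sites, and KLF1, which recognises CACCC boxes.

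The sequences that identify the transcripts are shown first for the globin probes that lie in coding sequence, since nearby globin genes are so alike that the probe decides what is read. Both have 1 reading frame without a stop codon over their 60 bases.

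Hba-a1 probe: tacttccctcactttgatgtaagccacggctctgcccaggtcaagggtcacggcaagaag
Hbb-b2 probe: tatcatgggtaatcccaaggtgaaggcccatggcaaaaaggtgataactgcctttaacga

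The Hba-a1 probe (A_55_P1962303, chromosome 11, 32183955 to 32184014, plus strand, mm9) and the Hba-a2 probe (A_55_P1962299, chromosome 11, 32197245 to 32197304, plus strand) each carry accessions of both alpha globin genes in the array annotation. They are thus read as probes of alpha globin mRNA and not as measures of 1 gene copy each. The Hbb-b1 probe (A_55_P1973809, chromosome 7, 110961105 to 110961164, minus strand) carries an accession that RefSeq (GRCm38.p6) assigns to Hbb-bt. The Hbb-b2 probe (A_55_P2038540) is given without a position in the array annotation. C57BL/6 mice carry the beta globin haplotype with Hbb-bs and Hbb-bt, so how far the Hbb-b2 probe reads either of these was not tested. A further probe, named Beta-s (A_55_P2108151) and not a member, matched the start of Hbb-bs at 46 of 46 bases, with 0 mismatches, and had 7 mismatches over 45 bases to Hbb-bt. The remaining members were Alas2 (A_51_P327451, chromosome X, 147004993 to 147005052, plus strand) and Slc4a1 (A_51_P196972, chromosome 11, 102210256 to 102210315, minus strand).

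Promoters are shown for an alpha globin gene, a beta globin gene and Alas2, because these transcripts moved together across the mice. Each line gives the 250 bases before the annotated start of the gene (RefSeq, GRCm38.p6), read in the direction of transcription, with capitals marking GATAA or its reverse complement TTATC and CACCC or its reverse complement GGGTG.

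Hba-a1 promoter, chr11:32283422-32283671, plus strand: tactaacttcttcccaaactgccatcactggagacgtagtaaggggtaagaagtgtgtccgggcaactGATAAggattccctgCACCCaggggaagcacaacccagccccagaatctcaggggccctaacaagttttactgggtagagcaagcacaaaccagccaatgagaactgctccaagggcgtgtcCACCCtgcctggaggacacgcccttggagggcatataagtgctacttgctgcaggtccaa
Hbb-bt promoter, chr7:103813924-103814173, minus strand: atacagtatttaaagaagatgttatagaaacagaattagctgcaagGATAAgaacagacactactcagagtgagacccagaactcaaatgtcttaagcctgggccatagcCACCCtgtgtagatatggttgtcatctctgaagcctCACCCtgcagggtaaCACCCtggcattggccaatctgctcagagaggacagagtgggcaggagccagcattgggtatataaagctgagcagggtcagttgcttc
Alas2 promoter, chrX:150547167-150547416, plus strand: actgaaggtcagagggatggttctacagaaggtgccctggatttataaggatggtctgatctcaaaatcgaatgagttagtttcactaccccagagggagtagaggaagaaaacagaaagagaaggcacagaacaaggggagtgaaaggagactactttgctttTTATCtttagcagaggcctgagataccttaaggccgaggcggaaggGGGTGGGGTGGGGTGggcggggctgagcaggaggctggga

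The Hba-a1 promoter held 1 GATAA and 2 CACCC matches, that of Hbb-bt 1 and 3, and that of Alas2 1 and 3, counted on both strands. Promoter windows of RefSeq genes run from 250 bases before to 50 bases after the start. Among 32851 windows, the 250 bases before the start held GATAA in 22.6% and CACCC in 52%, so either match is common. Windows were compared at the best offset without gaps. Those of Hba-a1 and Hba-a2 were identical over 297 of 297 bases, and those of Hbb-bt and Hbb-bs matched at 168 of 299 (56.2%). As an inserted or missing base shifts all that follows, the second count can understate the likeness of that pair. Under their file names, 3 of the 6 members matched an entry of the promoter table. A match is a run of letters and not a bound site.

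Measurement depth and the labels were examined before the members. The median spot was 3.72 to 10.5 times as bright as its local background, 16398 to 24867 probes per sample were well above background, and no spot was saturated. Values correlated across probes at 0.986 to 0.989 between mice on 1 array and at 0.925 to 0.959 between mice on different arrays. The labels name the tissue as striatum, and as heart left atrium in a description field. In every sample, 16 of 16 markers of striatal projection neurons were detected well above background, against 2 of 12 markers of atrial heart muscle. The heterozygous label did not come with a lower Brd2 level. Probe A_55_P1958678 read 11.06, 10.78, 12.01 and 12.02 log2 units in wildtype replicates 1 to 4 and 11.83, 11.68, 11.75 and 11.70 in heterozygous replicates 1 to 4, a difference of 0.28 (SE 0.35, limma adjusted p = 0.931). Probe A_55_P1953545 differed by 0.88 (SE 0.28, limma adjusted p = 0.5). Where the trap lies relative to these probes is not stated, so they do not check the genotype, and the genotypes below are those of the labels.

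The alpha globin mRNA was highest in wildtype replicate 4. On a log2 scale of background-corrected, normalized intensity, the Hba-a1 probe read 14.72, 14.75, 14.40 and 17.20 in wildtype replicates 1 to 4, and 16.53, 15.46, 15.10 and 15.20 in heterozygous replicates 1 to 4. Wildtype replicates 1 to 3 lay below all heterozygous mice, and wildtype replicate 4 lay above all of them. The Hba-a2 probe gave the same order at its top. It read 14.03 and 17.60 in wildtype replicates 3 and 4, and 16.58, 16.33, 15.84 and 16.20 in heterozygous replicates 1 to 4. The spot of the array shared by wildtype replicates 1 and 2 carried an outlier flag and gave no value. With that spot kept, these mice read 15.10 and 15.29.

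The beta globin probes had their highest value in the same mouse. Hbb-b1 read 12.99, 13.07, 13.71 and 16.51 in wildtype replicates 1 to 4, and 14.24, 13.01, 13.13 and 13.58 in heterozygous replicates 1 to 4. Apart from wildtype replicate 4 and heterozygous replicate 1, the mice lay within 1 log2 unit of each other. Hbb-b2 read 12.02, 12.31, 12.62 and 15.23 in wildtype replicates 1 to 4, and 13.91, 12.87, 11.76 and 12.27 in heterozygous replicates 1 to 4. Here the lowest value belonged to heterozygous replicate 3. Beta-s, which reads the other adult beta globin gene of this strain, stood at 10.88, 11.24, 10.63 and 14.36 in the wildtype mice and at 11.48, 11.09, 10.22 and 11.43 in the heterozygous mice. In the limma fit without wildtype replicate 4, the Beta-s difference of heterozygous minus wildtype was 0.10.

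The erythroid enzyme and the membrane transporter followed the globins. Alas2 read 8.20, 8.19, 9.38 and 11.88 in wildtype replicates 1 to 4, and 10.15, 8.79, 9.09 and 9.34 in heterozygous replicates 1 to 4. Wildtype replicates 1 and 2, which shared an array, were the lowest for Alas2. Slc4a1, well above background in 7 of the 8 samples, read 7.47, 7.38, 7.91 and 9.21 in the wildtype mice, and 8.17, 7.34, 7.61 and 7.60 in the heterozygous mice. Wildtype replicate 4 was the highest sample for 6 of the 6 members, and heterozygous replicate 1 was the second highest for 6 of 6. The order of the remaining mice differed from probe to probe. In bulk tissue, fewer cells of a type and less RNA per cell cannot be told apart.

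**Figure D1:**
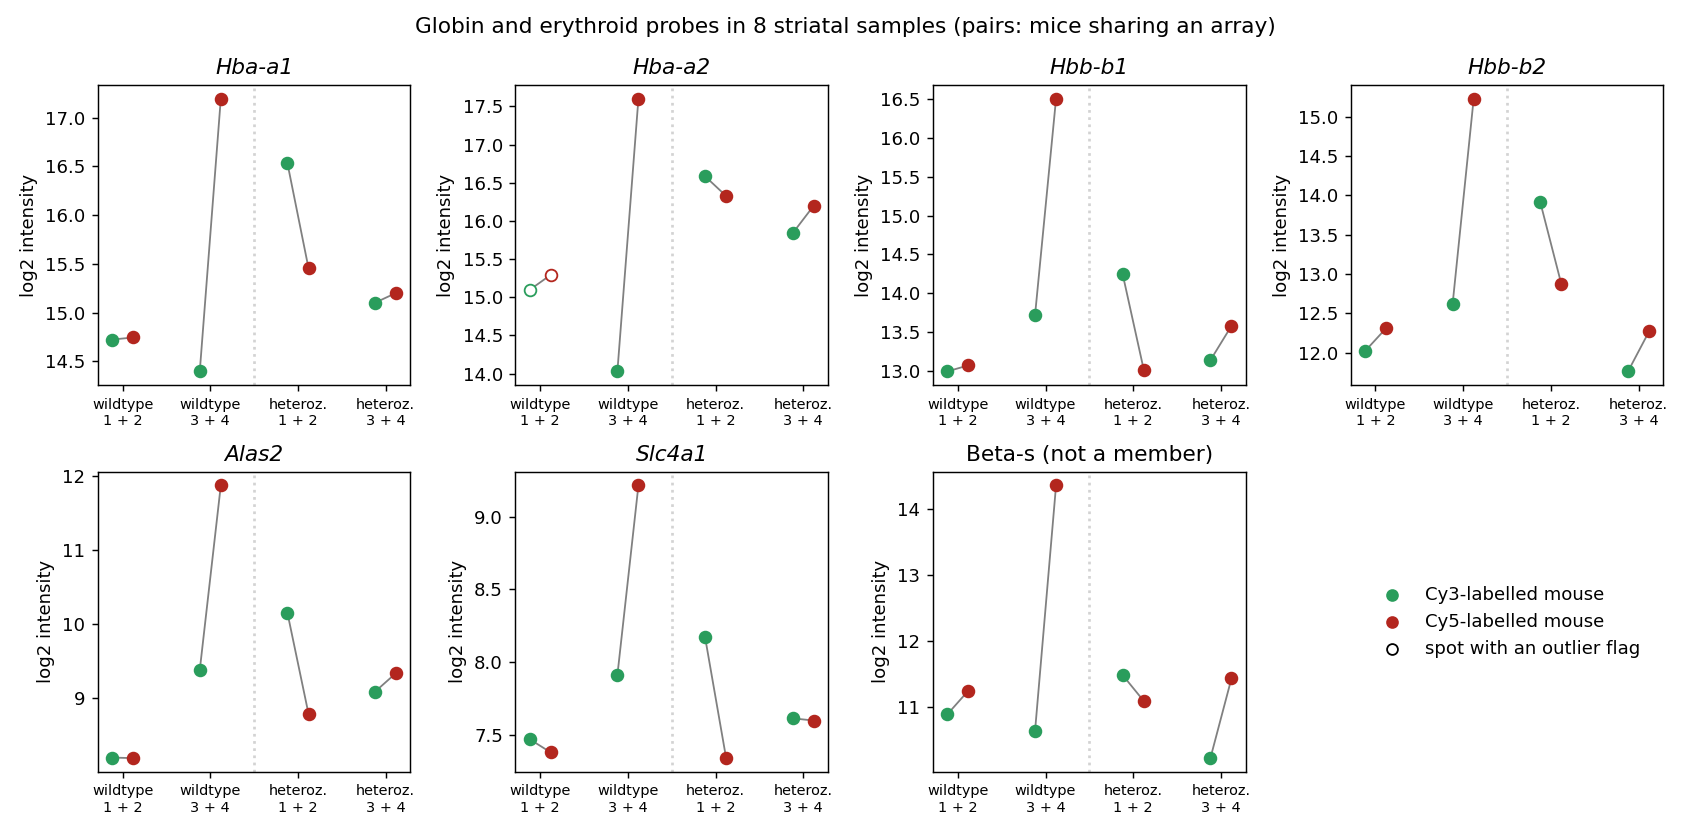
Normalized log2 intensity of the 6 member probes and of Beta-s in each mouse (vertical axes, each with its own range), with mice that shared an array joined by a line and coloured by dye. Wildtype replicate 4 is the top point of every panel, at 17.20 for Hba-a1 and 11.88 for Alas2. Open points mark the Hba-a2 spot with an outlier flag.

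Since the mice of an array share its hybridisation, the height of 1 mouse over its partner leaves out whatever the array as a whole adds. Wildtype replicate 4 stood above wildtype replicate 3 by 2.80 for Hba-a1, 3.57 for Hba-a2, 2.79 for Hbb-b1, 2.61 for Hbb-b2, 2.50 for Alas2 and 1.30 for Slc4a1 (log2). On the array of wildtype replicates 1 and 2, the same difference of Cy5 minus Cy3 lay between −0.09 for Slc4a1 and 0.29 for Hbb-b2 over the 5 members with a value. On the array of heterozygous replicates 3 and 4 it lay between −0.02 for Slc4a1 and 0.51 for Hbb-b2. The array of heterozygous replicates 1 and 2 ran the other way, with replicate 1, its Cy3 mouse, the higher. Cy5 minus Cy3 was −1.07 for Hba-a1, −1.23 for Hbb-b1, −1.04 for Hbb-b2, −1.36 for Alas2 and −0.83 for Slc4a1, and −0.26 for Hba-a2. Since the high mouse carried Cy5 on one of these arrays and Cy3 on the other, the direction did not follow the dye.

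With the mean Cy5 minus Cy3 difference of the other arrays subtracted, the height of wildtype replicate 4 over its partner was 3.52 for Hba-a2 (11.5-fold), 3.11 for Hba-a1 (8.66-fold), 3.03 for Hbb-b1 (8.17-fold), 2.87 for Alas2 (7.33-fold), 2.69 for Hbb-b2 (6.45-fold) and 1.62 for Slc4a1 (3.07-fold). The value for Hba-a2 rests on 2 other arrays. Heights over the array partner given below are all with this subtraction, for other genes too. The subtracted mean includes the array of heterozygous replicates 1 and 2, where the Cy3 mouse was itself high in these transcripts. The subtraction therefore raised the height of every member except Hba-a2, as from 2.80 to 3.11 for Hba-a1 and from 1.30 to 1.62 for Slc4a1. The folds and ranks of the members thus also carry the level of heterozygous replicate 1. Of 21124 probes ranked in this way, 219 (1.04%) stood at least 1 log2 unit higher, and 6 of the 6 members were among them. The median of all probes was 0.02. Only 18 probes (0.0852%) reached 2 log2 units, and they included all the members except Slc4a1. Hba-a2 ranked 1, Hba-a1 3, Hbb-b1 4, Alas2 5, Hbb-b2 8 and Slc4a1 48 from the top, and Beta-s, at 3.34 (10.1-fold), ranked 2. This measure was chosen after the values of wildtype replicate 4 had been seen, and the members were picked for their variation, so these ranks describe this mouse and are not a test.

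**Figure D2:**
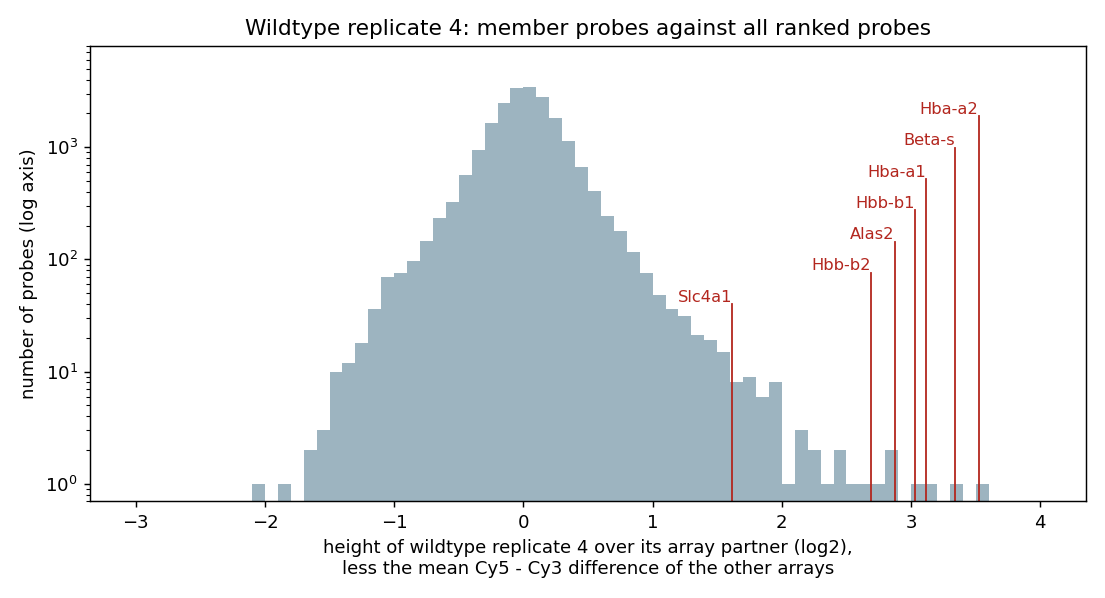
Number of probes (vertical log axis) at each height of wildtype replicate 4 over its array partner, in log2 units with the mean Cy5 minus Cy3 difference of the other arrays subtracted (horizontal axis). The bulk of 21124 probes lies around a median of 0.02, and the red lines place Slc4a1 at 1.62 and the other members between 2.69 and 3.52.

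The genotype means of the members lay closer together than the values of single mice. The members were picked by these values, so the counts that follow only set them beside all probes. In the limma fit across 18399 probes, which included a dye term and treated arrays as random blocks, 0 of the 5 members with a value in every sample passed an adjusted p of 0.05, where 0 of all probes (0%) did so. The lowest adjusted p of any probe was 0.437, and 1481 probes (8.05%) had an unadjusted p under 0.05. The values of the genotypes overlapped for 5 of the 5 members, whereas 3120 of 18399 probes (17%) had groups that did not overlap. Hba-a2 was outside this fit for its outlier spot.

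The directions among the members were mixed. Hba-a1 averaged 15.27 ± 1.30 log2 units in wildtype mice (SD, n = 4) and 15.57 ± 0.66 in heterozygous mice (SD, n = 4), a difference of heterozygous minus wildtype of 0.31 (SE 1.51, 95% interval −3.11 to 3.72). Hbb-b1 averaged 14.07 ± 1.66 against 13.49 ± 0.56 (SD, n = 4 each), a difference of −0.58 (SE 1.58, 95% interval −4.16 to 3.00). For Hbb-b2 the means were 13.05 ± 1.48 and 12.70 ± 0.92 (SD, n = 4 each), with a difference of −0.34 (SE 1.45, 95% interval −3.63 to 2.95). Each of these intervals spans changes of several-fold in either direction, so a moderate difference in globin mRNA was not detectable with these mice. Alas2, at 9.41 ± 1.74 and 9.34 ± 0.58 (SD, n = 4 each), differed by −0.07 (SE 1.55, 95% interval −3.57 to 3.43). Slc4a1, at 7.99 ± 0.85 and 7.68 ± 0.35 (SD, n = 4 each), differed by −0.31 (SE 0.86, 95% interval −2.25 to 1.63). The SD among wildtype mice was larger than that among heterozygous mice for these 5 members. Without wildtype replicate 4 the wildtype SD exceeded the heterozygous one only for Alas2, at 0.69. It was below the heterozygous one for Hba-a1 (0.19), Hbb-b1 (0.40), Hbb-b2 (0.30) and Slc4a1 (0.28). For Hba-a2 the difference was 0.73 with the outlier spot kept and 0.42 between the means of the samples left without it.

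Without wildtype replicate 4 the heterozygous mice had the higher mean for all 5 members. The difference then was 1.07 for Hba-a1 (SE 0.62, 95% interval −0.35 to 2.49), with a wildtype mean of 14.62 ± 0.19 (SD, n = 3). It was 0.20 for Hbb-b1 (SE 0.75, 95% interval −1.53 to 1.92), 0.34 for Hbb-b2 (SE 0.79, 95% interval −1.47 to 2.16), 0.68 for Alas2 (SE 0.77, 95% interval −1.09 to 2.45) and 0.10 for Slc4a1 (SE 0.44, 95% interval −0.90 to 1.1). In that fit 1 of 18506 probes (0.0054%) passed, and it was none of the members. The sign for Hbb-b1, Hbb-b2, Alas2 and Slc4a1 thus turned without this mouse. Other mice turned signs as well. Without heterozygous replicate 2 the difference was 0.13 for Hbb-b2 and 0.46 for Alas2. For Hba-a1 it was −0.41 without wildtype replicate 3 and −0.20 without heterozygous replicate 1. The direction of these differences is therefore not settled by these mice. The fit with all 8 samples took a correlation of 0.81 between the mice of an array, and counted its degrees of freedom over mice and not over arrays.

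**Figure D3:**
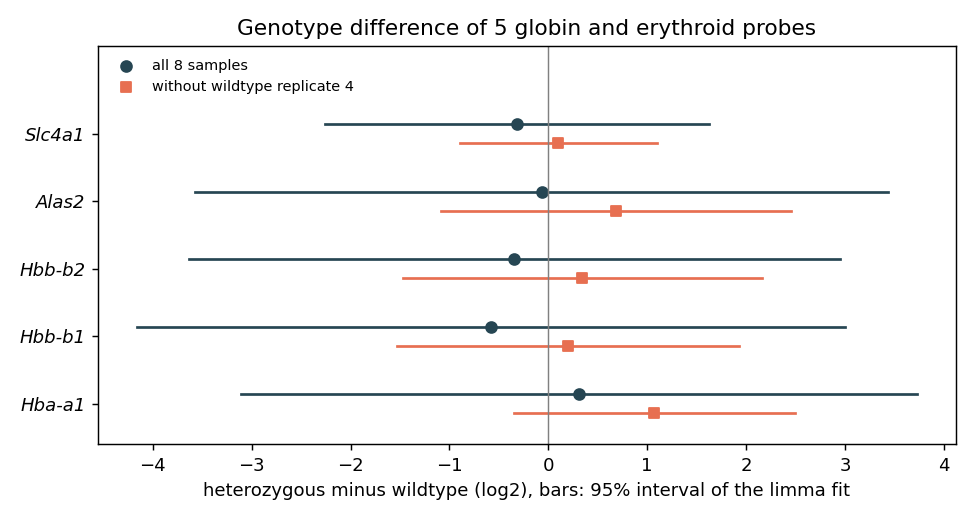
Heterozygous minus wildtype difference of 5 member probes in log2 units (horizontal axis), with bars for the 95% interval of the limma fit, from all 8 samples (circles) and without wildtype replicate 4 (squares). Every interval includes 0, and the points of Hbb-b1, Hbb-b2, Alas2 and Slc4a1 move from below 0 to above it, as for Hbb-b1 from −0.58 to 0.20.

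Across all 8 mice the members varied more than most probes. The SD over the 8 samples was 1.20 for Alas2, 1.19 for Hbb-b1, 1.16 for Hbb-b2, 0.96 for Hba-a1 and 0.62 for Slc4a1, against a median of 0.34 over 18399 probes. Alas2 ranked 137 and Slc4a1 1956 by this spread. After centring within each dye, the 10 pairs among the 5 members correlated at r = 0.820 to 0.999 (median 0.909) and rho = 0.571 to 1 over 8 samples. These samples share arrays in pairs, and the members were chosen for moving together, so no p is given. Hbb-b1 and Slc4a1 stayed in step under the choices of samples tried, with r = 0.999 over 8 samples, 0.997 without wildtype replicate 4 and 0.993 without both that mouse and heterozygous replicate 1. Alas2 and Slc4a1 had r = 0.967, 0.920 and 0.826 over the same choices. Pairs with Hbb-b2 or Hba-a1 weakened. Over the 6 mice left without those 2, Hbb-b2 correlated with Hbb-b1 at 0.456 (0.918 over 8 samples), with Alas2 at 0.361 (0.901) and with Slc4a1 at 0.476 (0.918). The correlation of Hba-a1 with Hbb-b1 was 0.823 over 8 samples and 0.655 without wildtype replicate 4, but −0.169 over the 6 mice, and with Alas2 it was 0.862, 0.732 and 0.247. The covariation of the Hba-a1 probe with the other members, and in part that of Hbb-b2, rests on these 2 mice.

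The Hba-a1 and Hbb-b1 probes kept a nearly constant difference within an array, and that difference varied between arrays. The Hba-a1 value minus the Hbb-b1 value was 1.73 and 1.68 in wildtype replicates 1 and 2, 0.68 and 0.69 in wildtype replicates 3 and 4, 2.29 and 2.44 in heterozygous replicates 1 and 2, and 1.97 and 1.63 in heterozygous replicates 3 and 4. The array means of this difference ranged over 1.68 log2 units, while the largest gap between mice on 1 array was 0.34. As probes differ in brightness, the difference is no ratio of alpha to beta mRNA, and only its change between samples can be read. Hbb-b2 minus Hbb-b1 also varied more between arrays, over 1.1, than within them, by at most 0.21, and so did Alas2 minus Hbb-b1, over 0.70 against 0.29. Other pairs were less even within an array: the largest gap there was 0.97 for Hba-a2 and Hbb-b1, 0.96 for Hba-a2 and Hbb-b2 and 1.11 for Hba-a1 and Beta-s, against 2.12, 2.12 and 1.41 between arrays. For Slc4a1 minus Hbb-b1 the larger spread lay within arrays, 1.49 against 0.94 between them. Slc4a1 was the dimmest member, at 7.34 to 9.21, and its differences depended on the processing. Its height in wildtype replicate 4 was 1.62 here, 1.97 with the scanner's processed signals and 2.19 with the authors' value table. How far this bears on the spread within arrays was not tested. Whether the changes between arrays come from the hybridisation or from the mice cannot be told apart, since each array held its own mice.

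Genes other than the 6 members with the most similar profile were sought among 2296 named genes with an SD of at least 0.5 after centring, using Pearson's r over 8 samples with the mean profile of Hba-a1, Hbb-b1, Hbb-b2 and Alas2. The nearest was Zdhhc22, a palmitoyltransferase, with r = 0.98. It read 8.44, 8.53, 9.24 and 11.51 in the wildtype mice and 9.71, 9.25, 8.79 and 9.01 in the heterozygous mice, so that its highest mouse and its second highest were those of the globins. Hbb-bs, read by the Beta-s probe, followed with r = 0.94 and Tent5c, a poly(A) polymerase, with r = 0.91. Speer8-ps1 (0.89), Col9a3 (0.86), and Prox1, Arsg, Sipa1l2, Kcnq1ot1 and Col25a1 (0.84 each) completed the first 10. Most opposed were Lmo3 (−0.95), the dopamine receptor gene Drd2 (−0.91), Actn2 (−0.90), Rspo1 (−0.87) and Ccl19 (−0.84). Wildtype replicate 4 was the highest sample for 10 of the 10 similar genes and the lowest for 5 of the 5 opposed ones. The profile itself peaked in this mouse, at 2.10, with 1.09 in heterozygous replicate 1 as the next. These counts therefore follow largely from how the genes were chosen. Without wildtype replicate 4, 0 of the first 10 remained among the nearest 10, which then began with Clcn5, Frmd4b and Dhtkd1. The SD minimum was applied again without that mouse, which left 1822 genes. Zdhhc22 dropped out by this minimum and not by its likeness, as its r was 0.916, against 0.910 for the tenth gene then listed. The r of the others of the first 10 was 0.371 to 0.851 without that mouse.

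Other hemoglobin chains, apart from Beta-s, stood near the array partner in wildtype replicate 4. Of 10 such genes on the array 4 were tested, and the other 6 were too dim to be tested. Cygb (cytoglobin) and Ngb (neuroglobin), heme proteins of non-erythroid cells, had heights over the array partner of 0.15 and −0.22, and the embryonic chain Hbb-bh1 of 0.16. A further Ngb probe, of lower mean, had a height of 0.30. The embryonic chains Hbb-y and Hba-x were not well above background in any sample. Cygb read 13.36 ± 0.46 in wildtype and 13.24 ± 0.23 in heterozygous mice (SD, n = 4 each). Its genotype difference was −0.12 (SE 0.31), smaller than the spread between wildtype mice.

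Of 31 other erythroid gene names on the array, 16 were tested and 0 passed the genotype test. Of the 16, 6 were higher and 10 lower in heterozygous mice, with a median difference of −0.18. Dmtn and Epb42 were also listed under their older names Epb4.9 and Epb4.2, which are counted separately. Over all 15063 genes tested, 0 passed (0%), 7038 were higher and 8025 lower, and the median was −0.03. In wildtype replicate 4 the median height of the 16 over the array partner was 0.05, with a range from −0.73 to 0.95, and 0 of them reached 1 log2 unit. Dmtn, an actin-bundling protein of the membrane skeleton that brain also expresses, differed by −0.47 between genotypes (SE 0.40). The probe under its older name Epb4.9 differed by 0.02 (SE 0.25). Car1, a carbonic anhydrase of red cells, had the lowest unadjusted p of the list and differed by −0.84 (SE 0.25, limma adjusted p = 0.482), yet its height in wildtype replicate 4 was 0.06. Among the names not tested, 11 were well above background in no sample. They included Rhag, Kel and Epb42, components of the red cell membrane, and Gata1 and Klf1, erythroid transcription factors. Ahsp, the chaperone of free alpha globin, cleared the background in 1 sample and read 7.00 in wildtype replicate 4 against 6.18, 6.18 and 6.08 in the other wildtype mice.

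Heme synthesis and handling showed no shared shift. Of 22 genes 16 were tested, 0 passed, 8 were higher and 8 lower, with a median of −0.10. Their median height in wildtype replicate 4 was 0.10, and 0 of 16 reached 1 log2 unit. Blvrb, which reduces biliverdin, differed by 1.34 (SE 0.50, limma adjusted p = 0.549), Slc25a39, a mitochondrial carrier, by 1.02 (SE 0.31, limma adjusted p = 0.488) and Abcb6, a porphyrin transporter, by 0.63 (SE 0.23, limma adjusted p = 0.550). In wildtype replicate 4 these genes stood at −0.68, 0.13 and −0.03 over the array partner, against 2.69 to 3.52 for the globin members.

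Single genes of other blood cells were also high in wildtype replicate 4. S100a9, a calcium-binding protein of neutrophils, read 7.16, 7.71, 8.09 and 10.42 in wildtype replicates 1 to 4, and 7.42, 8.21, 7.75 and 7.51 in heterozygous replicates 1 to 4. Its partner S100a8 was well above background in 2 samples and read 6.38, 6.48, 6.80 and 8.63 in the wildtype mice. Pf4, a platelet chemokine, read 7.40, 7.51, 7.95 and 9.71 in the wildtype mice and 7.11, 7.06, 7.23 and 7.30 in the heterozygous mice. These 3 genes were singled out after their values had been seen. As a whole the neutrophil and monocyte list (6 of 17 genes tested) had a median height of 0.42 with 1 gene past 1 log2 unit, the platelet list (7 of 13) 0.24 with 1 gene, and the lymphocyte list (7 of 16) −0.01 with 0. In each of these lists 0 genes passed the genotype test, and the median differences were −0.30, −0.25 and −0.13.

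Most vessel genes stood near the array partner in wildtype replicate 4. Of 18 endothelial genes tested, 0 reached 1 log2 unit in wildtype replicate 4, the highest stood at 0.52 and the median was 0.19. For 11 genes of pericytes and vascular smooth muscle the median was −0.08 and the highest 0.24. An exception among the genes not tested was Vwf, the von Willebrand factor of endothelium and platelets. With its outlier spot kept it read 10.29, 10.14, 11.08 and 12.03 in the wildtype mice and 11.06, 10.37, 11.32 and 10.76 in the heterozygous mice, a height of 1.42 in wildtype replicate 4. None of the tested vessel genes passed the genotype test. Tagln, a smooth muscle gene, differed by −2.10 (SE 0.62, limma adjusted p = 0.482), Rgs5 of pericytes by 1.40 (SE 0.39, limma adjusted p = 0.450) and Cldn5, the endothelial tight junction protein, by −1.07 (SE 0.31, limma adjusted p = 0.476), and in wildtype replicate 4 the last pair stood at −0.24 and 0.20 over the array partner.

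Markers of the choroid plexus, the richly vascularised tissue that makes cerebrospinal fluid in the ventricles beside the striatum, were high in wildtype replicate 4 as well. With the mean difference of the other arrays subtracted, 9 of 10 genes tested (11 on the array) had a height of at least 1 log2 unit. The 10 genes had a median of 1.82, against 0.02 over all 15063 genes, of which 175 (1.16%) reached 1 log2 unit. The subtracted mean includes the array of heterozygous replicates 3 and 4, whose Cy3 mouse was itself high in some of these genes. Kcnj13, at a height of 2.22, read 9.23 and 10.33 in wildtype replicates 3 and 4. In heterozygous replicates 3 and 4 it read 10.30 and 7.81. Ttr, the thyroxine carrier of this tissue, read 6.65, 9.97, 15.27 and 17.35 in wildtype replicates 1 to 4, and 12.42, 12.19, 17.22 and 14.64 in heterozygous replicates 1 to 4. Its height was lowered by the subtraction, to 1.91. The list's dye-centred median ran from −1.79 to 2.07 over the wildtype mice and from −0.99 to 1.57 over the heterozygous mice. It was highest in wildtype replicate 4, as the globins were, but second in heterozygous replicate 3, where the mean profile of the 4 globin and Alas2 probes was −0.35. In heterozygous replicate 1, where that profile was 1.09, the choroid plexus median was −0.59. Of the 11 meningeal genes tested, 2 reached 1 log2 unit in wildtype replicate 4, and the median was 0.48. The part of these tissues in the globin values was not tested.

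Genes of striatal projection neurons were lower in wildtype replicate 4. All 12 tested stood below the array partner, with a median of −1.18 and a range from −1.50 to −0.48. The list's dye-centred median was −0.94 in that mouse and between −0.08 and 0.37 in the other 7. Penk, the enkephalin precursor, read 15.67, 15.87, 16.23 and 14.90 in the wildtype mice and 16.61, 16.85, 16.29 and 16.34 in the heterozygous mice. In heterozygous replicate 1, the second highest in globin mRNA, the list's median was 0.03, inside the range of the other mice. Oligodendrocyte genes (7 tested) had a median height of 0.35 in wildtype replicate 4, astrocyte genes (9) 0.20 and microglial genes (10) −0.12. At least 1 log2 unit was reached by 0, 2 and 0 of them, the astrocyte genes being Aldh1l1 at 1.65 and Gfap at 1.31. The 4 atrial genes tested had a median of 0.25: Myl4 stood at 1.28 and Nppa, the atrial natriuretic peptide, at 0.83, but Tnnt2 at −0.33 and Myh7 at −0.91. How far the makeup of the dissected tissue bears on the globin values was not tested.

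**Figure D4:**
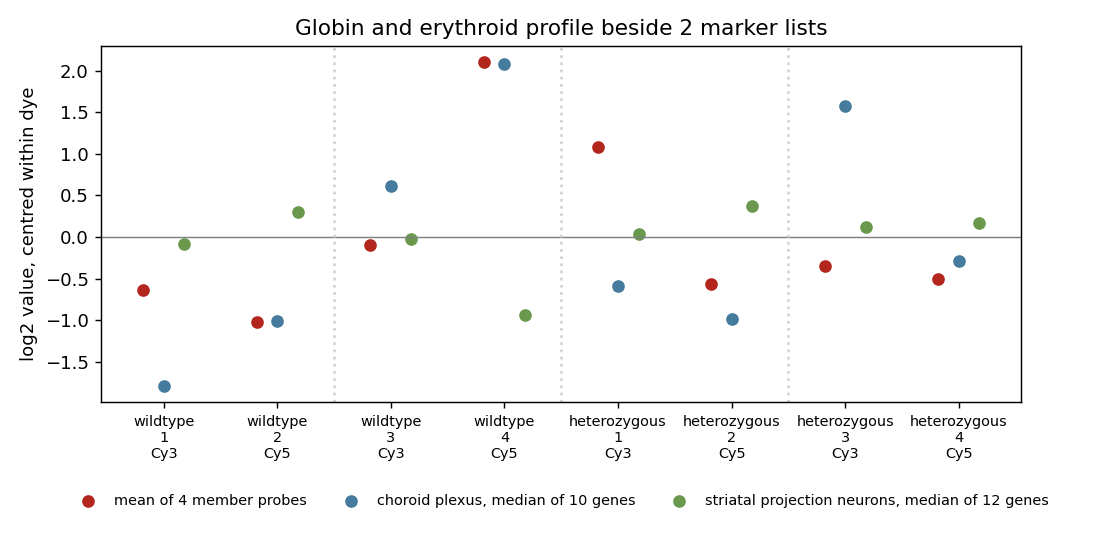
Dye-centred log2 values per mouse (vertical axis) of the mean of 4 member probes (Hba-a1, Hbb-b1, Hbb-b2, Alas2), of the choroid plexus median and of the striatal projection neuron median, with dotted lines between arrays. In wildtype replicate 4 the 3 measures stand at 2.10, 2.07 and −0.94, whereas in heterozygous replicate 1 they stand at 1.09, −0.59 and 0.03.

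**Figure D5:**
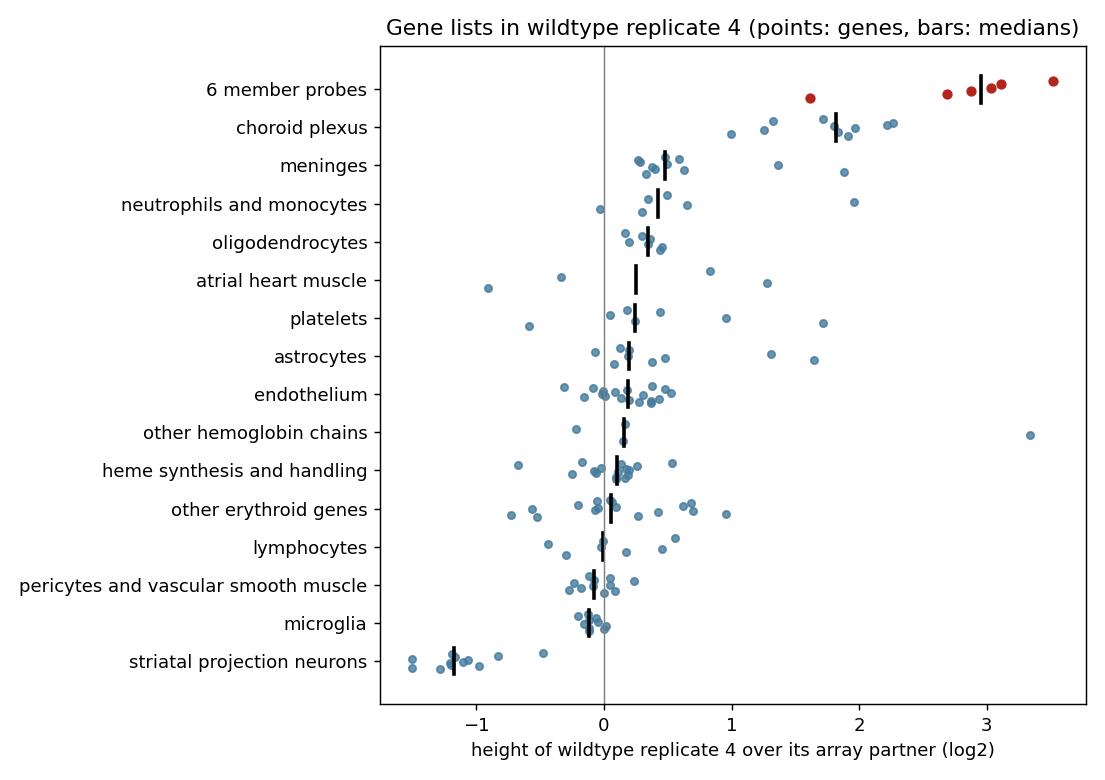
Height of wildtype replicate 4 over its array partner in log2 units (horizontal axis) for the tested genes of each list (points) with the list's median (bar), and for the 6 member probes in red. The mean Cy5 minus Cy3 difference of the other arrays is subtracted. The choroid plexus list has a median of 1.82, the medians of the vessel lists are 0.19 and −0.08 and the striatal projection neuron list has a median of −1.18.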

How the data were processed

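The members and gene lists were chosen with earlier results of these data known. Spot and background intensity were deposited for each channel as raw scanner output, read by Agilent Feature Extraction 11.0.1.1, per the file headers. The authors' deposited value table is a linear ratio: the background-subtracted median spot signal over the column median. That scale was found by comparison with the scanner values (100% equal); no centring across samples was found. Here the mean spot signal was corrected with normexp (offset 50), then loess and Aquantile, in limma 3.58.1 (R 4.3.3). Outlier-flagged spots were dropped, and probes well above background in at least 4 of 8 samples were kept. Of 22288 kept probes, 3889 lacked a value for such a spot and 18399 were fitted (lmFit, duplicateCorrelation by array, eBayes) with a dye term, at a Benjamini-Hochberg threshold of 0.05. Genes of lists were read by their kept probe with the highest mean. The text names all members and, per list, that gene and up to 3 others by unadjusted p, of which a portion is given. For likeness it names the 10 nearest and 5 most opposed genes. Of 39429 probes, 27234 were named through RefSeq (GRCm38.p6), and the others kept the file's name. Probe positions are on mm9, per the file headers. The samples are separate mice, and the number of arrays limits the precision. In a simulation of the genotype comparison on 18399 probes, 5% of probes changed by 1 log2 unit and 86% of those changed by 3 were recovered. The values of some list members are not reported here.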

Additional observations from a re-analysis of the deposited data

Results flagged for a closer look

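In the wildtype group, 2 globin probes had 1 mouse set apart from the others, the gap to the nearest mouse taking up most of the group's range. Hba-a1 in wildtype replicate 4 read 17.20, with 0.876 of the range of the 4 wildtype mice lying between it and the next mouse. Beta-s in the same mouse read 14.36, with 0.835 of the range in that gap. Such gaps were looked for in 21 groups, and chance alone gives about 1 in 20. The members were picked for varying between mice, and these globin probes moved together. That rate therefore does not apply to them, and the gaps are a description and not a test.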

How the results depend on the processing

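The genotype differences of the members moved by less than the SD among wildtype mice in 106 of 106 refits, an SD that wildtype replicate 4 widened. For the members other than Hba-a2 the sign changed between refits, and the adjusted p stayed between 0.662 and 1.00 (limma). Leaving out each mouse in turn gave differences of −0.41 to 1.07 for Hba-a1, −1.25 to 0.20 for Hbb-b1, −0.94 to 0.34 for Hbb-b2, −0.69 to 0.68 for Alas2 and −0.67 to 0.10 for Slc4a1. Over all refits, in which leaving out an array set the extremes except for Hba-a1, they ran from −1.62 to 0.46 for Hbb-b1, −1.22 to 0.54 for Hbb-b2, −1.29 to 1.15 for Alas2 and −0.88 to 0.26 for Slc4a1. The count of probes past the threshold, 0 in the reported fit, was 0 to 1 without each replicate in turn (1 without wildtype replicate 4). It was 539 with no array block, 23 when the array of wildtype replicates 1 and 2 was left out, 14 when that of wildtype replicates 3 and 4 was, and 5 when that of heterozygous replicates 3 and 4 was. Of the list genes, 4 passed with no array block and 1 when the array with wildtype replicates 3 and 4 was dropped. The cause was not tested. Samples with the same replicate number deviated together at r = 0.040, 0.255, 0.164 and 0.125. After centring within dye, which goes with the replicate number, r was −0.043, 0.182, 0.080 and 0.055. These low values do not show that the numbers pair the mice, and they cannot exclude it. A replicate block called 0 probes, as the reported fit did. The height of wildtype replicate 4 over its partner moved in 1 of 24 refits, to 2.19 for Slc4a1 with the authors' value table. List medians moved in 31 of 315 refits. Of the 10 genes most like the members, 4 were shared after centring on dye and genotype, 3 with the scanner's processed signals, 4 with Spearman's correlation and 0 without wildtype replicate 4, the last setting chosen after seeing the data. In that last setting Zdhhc22 was left out by the SD minimum, with r = 0.916.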

Other observations

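Genes outside the lists were also high in wildtype replicate 4, and the following were picked after their values were seen. Nrn1, a neuritin that promotes neurite growth, had a height of 2.83 log2 units with the mean difference of the other arrays subtracted. It read 11.54 and 8.37 in wildtype replicates 1 and 2, 9.90 and 11.60 in wildtype replicates 3 and 4, 9.36 and 7.99 in heterozygous replicates 1 and 2, and 9.57 and 10.70 in heterozygous replicates 3 and 4, so it was as high in wildtype replicate 1, where the globins were low. Cck, the cholecystokinin precursor of many cortical neurons, had a height of 1.95 on the same measure. It was highest in wildtype replicate 1, at 15.62, against 13.78 and 14.82 in wildtype replicates 3 and 4. For Nrn1 and Cck the subtracted mean includes the array of wildtype replicates 1 and 2, whose Cy3 mouse was itself high. Their heights are therefore larger than the plain gaps between wildtype replicates 3 and 4. Sln (sarcolipin), on the atrial list but too dim to be tested, read 6.93, 7.86, 7.04 and 10.26 in wildtype replicates 1 to 4.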
